A study of Mus musculus with 4 samples.

Results

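The 10 genes described here encode transcription factors and cofactors that T cells use when they become effector cells or, under lasting antigen, exhausted cells. They are Tox, Eomes, Tbx21, Id2, Prdm1, Zeb2, Bhlhe40, Batf, Irf4 and Irf8, chosen by name among the 32285 genes counted in every library. The samples were T cells sorted by flow cytometry for surface CD3 from subcutaneous tumors of Tsc2-deficient 105K cells, a mouse kidney tumor line, grown in wild-type C57BL/6J mice that were male and 6 weeks old at injection. Control tumors expressed the non-targeting hairpin sh-NC and knockdown tumors the hairpin sh-B7-H3 (1) against Cd276, the gene of the checkpoint protein B7-H3, and all tumors of both groups lacked Tsc2. Tumors of a group (80 per group) were pooled before the sort, and each group has 2 droplet libraries (CITE-seq, 10x Genomics 3' chemistry) that the labels describe as lanes of that pool. By the labels, the spread between libraries is a spread between lanes. Each p-value speaks of these pools and not of other mice. The legend in the paper calls the samples of a group independent, and its methods describe loading onto a single lane. The counts used here did not settle the difference.

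Cells were classed by their unique molecular identifiers (UMIs, which count RNA molecules). A CD4 cell held at least 1 Cd4 UMI and no UMI of Cd8a or Cd8b1, and a CD8 cell held at least 3 UMIs of Cd8a and Cd8b1 and no Cd4 UMI. A cell with at least 20 UMIs of Ccl5, a chemokine gene of effector and memory T cells, was called Ccl5-high, and any other cell Ccl5-low. The control libraries 1 and 2 held 119 and 124 CD4 Ccl5-high cells, and the knockdown libraries 1 and 2 held 322 and 419. There were 377 and 427 CD8 Ccl5-high cells among control and 735 and 942 among knockdown cells. The CD4 Ccl5-low class held 1577 and 1311 control cells against 398 and 532 knockdown cells, and the CD8 Ccl5-low class 2225 and 1815 against 413 and 632. Levels are given in CPM, the usual scaling of a gene's UMIs to the UMI total of all cells of a class in a library, in the order control 1, control 2, knockdown 1, knockdown 2 wherever 4 values stand together.

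The libraries held 12112, 10589, 7030 and 9129 called cells with 79224898 to 132820909 RNA UMIs, of which 6324, 5226, 2962 and 3979 cells were kept. Median depth was 5974 to 6785 UMIs in the Ccl5-high and 6544 to 9297 UMIs in the Ccl5-low classes. Any 2 libraries shared 17 to 35 cell barcodes. Cd276 had at most 2 UMIs in the kept CD4 and CD8 cells of a library, and since the hairpin acts in the tumor cells that the sort removes, this count checks no label. The 6 effector markers (Ccl5, Ccl4, Nkg7, Gzmk, Gzmb and Ifng) summed to 22607 to 37377 CPM in the Ccl5-high and 156 to 1162 CPM in the Ccl5-low classes. Ccl5 is in that sum, so part of the gap was set by the rule that made the classes. Runx3, a factor of the CD8 lineage, stood at 411 to 504 CPM in CD4 Ccl5-high cells against 48.1 to 74.4 CPM in CD4 Ccl5-low cells, and at 377 to 421 CPM in CD8 Ccl5-high cells, so it did not set the lineages apart in the Ccl5-high class.

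The factors work as a network. The T-box proteins Eomes and T-bet (Tbx21) bind the same short DNA motif and turn on genes for cytotoxic granules and interferon-gamma, and Zeb2 works with T-bet in late effector cells. Id2 binds no DNA itself but sequesters E proteins, the factors that hold T cells in a naive or memory state, while Blimp-1 (Prdm1) and Bhlhe40 are repressors that are induced on activation. Batf joins Jun proteins and Irf4 at shared sites downstream of the antigen receptor, Irf8 is a relative of Irf4, and Tox is the chromatin-associated factor that exhausted T cells need to persist.

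In the GENCODE annotation of GRCm38, Tox lies at chr4:6686353-6991557, Eomes at chr9:118478212-118486132, Tbx21 at chr11:97098071-97115331, Id2 at chr12:25093799-25097140 and Prdm1 at chr10:44437177-44528501. Zeb2 lies at chr2:44983632-45117395, Bhlhe40 at chr6:108660629-108666925, Batf at chr12:85686669-85709087, Irf4 at chr13:30749226-30766976 and Irf8 at chr8:120736358-120756694. RefSeq windows (GRCm38.p6, 250 bases before to 50 bases after a transcription start, read along the gene) were at hand for Eomes, Tbx21, Prdm1, Id2, Batf, Irf4, Irf8 and Zeb2, and not for Tox and Bhlhe40. Shown are those of Eomes and Prdm1, whose change with the Ccl5 state differed most between the lineages among the genes with a window, and that of Tbx21, the T-box relative of Eomes. Capitals mark every match, on both strands, to 5 motifs: the T-box motif AGGTGTGA, the AP-1 motif TGANTCA, the interferon regulatory factor motif GAAANNGAA, the E-box CACGTG bound by Bhlhe40, and the E-box CAGGTG bound by E proteins and ZEB factors. No match overlapped another in these windows.
Eomes, chr9:118477939-118478238, plus strand: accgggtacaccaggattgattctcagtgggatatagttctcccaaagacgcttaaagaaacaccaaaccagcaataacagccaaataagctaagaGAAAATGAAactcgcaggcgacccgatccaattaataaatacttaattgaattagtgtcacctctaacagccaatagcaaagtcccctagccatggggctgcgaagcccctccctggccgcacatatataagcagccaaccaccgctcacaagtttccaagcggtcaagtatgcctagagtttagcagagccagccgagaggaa
Tbx21, chr11:97115282-97115581, minus strand: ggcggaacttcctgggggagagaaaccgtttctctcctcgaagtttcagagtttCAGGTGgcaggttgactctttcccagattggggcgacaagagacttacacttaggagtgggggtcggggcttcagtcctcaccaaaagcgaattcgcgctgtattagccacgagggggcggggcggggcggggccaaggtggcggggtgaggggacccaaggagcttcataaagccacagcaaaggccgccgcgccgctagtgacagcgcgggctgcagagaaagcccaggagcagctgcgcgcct
Prdm1, chr10:44458699-44458998, minus strand: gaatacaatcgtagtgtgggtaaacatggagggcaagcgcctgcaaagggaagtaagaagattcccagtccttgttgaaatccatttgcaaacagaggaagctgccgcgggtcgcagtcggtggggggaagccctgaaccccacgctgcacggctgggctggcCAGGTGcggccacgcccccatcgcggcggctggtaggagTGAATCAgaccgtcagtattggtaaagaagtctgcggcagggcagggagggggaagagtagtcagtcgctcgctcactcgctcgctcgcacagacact
The Eomes window held 1 interferon regulatory factor motif, which 8.56% of all 32851 promoter windows hold. The Tbx21 window held 1 CAGGTG box, found in 20.2% of windows, and the Prdm1 window held 1 CAGGTG box and 1 AP-1 motif, the latter found in 7.81% of windows. No member window held the T-box motif or CACGTG, which 1.28% and 7.15% of windows hold. Of the 4 Zeb2 windows 1 held 2 AP-1 motifs, and of the 2 Irf8 windows 1 held a CAGGTG box. A match of letters is no evidence of binding.

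The first comparison asked how the factors differ between Ccl5-high and Ccl5-low cells of the same library. In CD4 cells all 10 genes, each of which passed the filter on low counts, were higher in Ccl5-high cells by at least 1.5-fold at an adjusted p under 0.05 (called, edgeR's quasi-likelihood test with library as a block), where 15.9% of the 9949 genes tested were called higher. In CD8 cells all 10 were called higher too, against 17.1% of 10528 genes. A gene that is high only in Ccl5-high cells passes the filter through that class, so the counts describe the genes and do not test them as a group.

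Tox, the exhaustion factor, stood at 417, 438, 504 and 508 CPM in CD4 Ccl5-high cells and at 66.4, 68.3, 109 and 96.9 CPM in CD4 Ccl5-low cells. In CD8 cells it stood at 234, 233, 323 and 292 CPM in the Ccl5-high and at 42.0, 40.2, 50.05 and 62.8 CPM in the Ccl5-low class. The classes did not overlap in either lineage, and the log2 fold change between them was 2.19 ± 0.08 (SE, adjusted p = 3.2e-09) in CD4 and 2.11 ± 0.07 (adjusted p = 7.0e-09) in CD8 cells. Tox had a clear level in Ccl5-low cells, where most of the other factors were rare.

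Eomes, a T-box gene, was nearly confined to Ccl5-high cells in the CD4 lineage, with 191, 186, 181 and 166 CPM against 1.86, 1.75, 10.5 and 8.91 CPM, a log2 fold change of 5.17 ± 0.33 (adjusted p = 1.9e-07). In CD8 cells Eomes stood at 120, 122, 139 and 128 CPM in the Ccl5-high and at 15.9, 14.1, 16.2 and 17.4 CPM in the Ccl5-low class, a log2 fold change of 2.64 ± 0.07 (adjusted p = 1.8e-09). Its rise with Ccl5 was smaller in CD8 than in CD4 cells by 2.64 ± 0.32 on the log2 scale (interaction, adjusted p = 1.6e-05). Tbx21 was sparse. It reached 7.54, 10.3, 16.6 and 14.5 CPM in CD4 Ccl5-high and 24.2, 27.6, 18.8 and 21.7 CPM in CD8 Ccl5-high cells, against 1.21 to 2.71 CPM in the Ccl5-low classes, with log2 fold changes of 2.47 ± 0.30 and 3.08 ± 0.18. The state effect on Tbx21 did not differ between the lineages by the test (0.15 ± 0.37, adjusted p = 0.87), an estimate too wide to show that they are alike.

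Id2, the E protein inhibitor, stood at 928, 1183, 1067 and 956 CPM in CD4 Ccl5-high and at 855, 884, 885 and 869 CPM in CD8 Ccl5-high cells. The Ccl5-low classes held 97.7, 106, 194 and 183 CPM (CD4) and 61.7, 71.9, 74.7 and 90.2 CPM (CD8). The log2 fold changes were 2.60 ± 0.15 and 3.21 ± 0.08, and the CD8 change was larger by 0.59 ± 0.18 (adjusted p = 0.039). That difference did not pass without control library 1 (0.62, adjusted p = 0.057), knockdown library 1 (0.48, adjusted p = 0.13) or knockdown library 2 (0.52, adjusted p = 0.10).

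The repressor genes and Zeb2 were almost silent in CD8 Ccl5-low cells. Prdm1 rose there from 0.815, 0.793, 1.62 and 1.70 CPM to 26.9, 32.3, 39.9 and 38.8 CPM in CD8 Ccl5-high cells, a log2 fold change of 4.60 ± 0.17 (adjusted p = 9.9e-09). In CD4 cells the change was from 5.57, 7.81, 13.5 and 14.0 CPM to 84.2, 75.8, 69.5 and 61.5 CPM, or 2.64 ± 0.23, and the difference between the lineages was 2.01 ± 0.33 (adjusted p = 0.00038). Bhlhe40 behaved the same way, with 1.44, 1.30, 5.14 and 5.45 CPM in CD8 Ccl5-low and 78.4, 80.6, 101 and 100.1 CPM in CD8 Ccl5-high cells, a log2 fold change of 4.81 ± 0.23 against 2.49 ± 0.13 in CD4 cells (difference 2.36 ± 0.28, adjusted p = 1.3e-05). Zeb2 had only 2 to 6 UMIs per library in CD8 Ccl5-low cells, where it stood at 0.113 to 1.62 CPM, and 15.0, 15.99, 18.1 and 15.1 CPM in CD8 Ccl5-high cells, so its log2 fold change of 4.71 ± 0.39 rests on few molecules. In CD4 cells Zeb2 rose by 3.48 ± 0.29. Over the 10 genes the state effect was thus called larger in CD8 cells for Id2, Prdm1 and Bhlhe40 (3 genes, background 6.38%) and smaller for Eomes (1 gene, background 2.96%).

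Batf and the interferon regulatory factors were also higher in Ccl5-high cells. Batf stood at 191, 231, 195 and 187 CPM in CD4 Ccl5-high and at 46.0, 46.2, 54.1 and 58.0 CPM in CD4 Ccl5-low cells (log2 fold change 1.69 ± 0.10), and at 81.5, 70.8, 106 and 99.1 CPM against 26.7 to 31.0 CPM in CD8 cells (1.26 ± 0.10). Irf8 stood at 121, 131, 106 and 105 CPM in CD4 Ccl5-high cells and 33.1, 30.6, 39.1 and 36.1 CPM in CD8 Ccl5-high cells, with 8.39 to 17.7 and 4.82 to 9.47 CPM in the Ccl5-low classes and log2 fold changes of 2.86 ± 0.18 and 2.08 ± 0.14. Irf8 is also a gene of myeloid, dendritic and B cells. The 10 myeloid markers summed to 23.9 to 69.0 CPM in CD4 Ccl5-high and 164 to 298 CPM in CD4 Ccl5-low cells, while in CD8 cells the ranges overlapped, with 52.3 to 247 CPM in the Ccl5-high and 63.2 to 179 CPM in the Ccl5-low class. Of these markers Lyz2, Apoe, C1qa, C1qb and C1qc had UMIs in both Ccl5-high classes of every library, Apoe up to 38.7 CPM in CD4 and 129.96 CPM in CD8 cells, and Cd14 was at 0 in CD4 Ccl5-high cells of all 4 libraries. The 5 dendritic markers summed to 4.1 to 13.8 CPM in CD4 and 2.7 to 6.0 CPM in CD8 Ccl5-high cells, with Flt3 and Siglech at 0 and Ccr9 and Zbtb46 detected in every library. The 5 B cell markers summed to 1.3 to 3.4 CPM in CD4 and 1.5 to 7.5 CPM in CD8 Ccl5-high cells, with Cd79a at 0 and Cd79b detected in every library. In the Ccl5-low classes the dendritic markers summed to 6.2 to 7.0 CPM (CD4) and 84.2 to 95.8 CPM (CD8), where Ccr9 alone held 81.0 to 94.1 CPM in CD8 cells. The B cell markers there summed to 3.4 to 6.4 and 17.0 to 22.0 CPM, where Cd79b held 16.5 to 19.7 CPM in CD8 cells. The part of such cells in the Irf8 level was not tested. The 4 natural killer cell markers summed to 66.6 to 81.6 CPM in CD4 Ccl5-high cells, where up to 3 of them were at 0 in a library. In CD8 Ccl5-high cells they summed to 48.8 to 53.8 CPM in control and 88.9 to 95.6 CPM in knockdown libraries. The Ccl5-low classes held 0.40 to 2.97 (CD4) and 1.10 to 4.87 CPM (CD8). The part of cells with these markers in the levels of the factors was not tested. In CD4 cells Irf4 had the smallest change of the 10 genes, from 4.60, 7.44, 12.4 and 9.45 CPM to 27.7, 11.5, 17.5 and 20.4 CPM (log2 fold change 0.91 ± 0.30, adjusted p = 0.025). Control library 2 at 11.5 CPM lay below knockdown library 1 of the Ccl5-low class. The Irf4 call in CD4 cells was lost without control library 1 (0.52, adjusted p = 0.081) and without knockdown library 2 (0.93, adjusted p = 0.068), and with cells thinned to 2000 UMIs (0.52, adjusted p = 0.40). In CD8 cells Irf4 rose by 1.60 ± 0.26 (adjusted p = 0.00038), to 4.76 to 10.5 CPM.

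Genes of the same pathways were read from lists chosen alongside the factors. All 10 factors of resting T cells were called lower in Ccl5-high cells of both lineages, with a median log2 fold change of -3.75 in CD4 and -2.76 in CD8 cells against 0.00 and 0.01 over all genes, and 16.4% and 15.2% of all genes tested were called lower. Tcf7, which encodes TCF-1, fell by 5.17 in CD4 and by 3.18 in CD8 cells on the log2 scale, and Id3, the other inhibitor of E proteins beside Id2, fell by 5.28 and by 3.12. Of 10 exhaustion genes 9 were higher in CD4 and 10 in CD8 cells (medians 3.36 and 5.09), such as Havcr2, which encodes TIM-3 (4.11 ± 0.28 and 6.07 ± 0.30). T-bet and Eomes targets had 7 of 9 tested higher and 1 lower in CD4 cells, and 9 of 9 higher in CD8 cells, with Ifng, interferon-gamma, at 4.07 ± 0.18 and 5.36 ± 0.33. The other members of the factors' gene families had 3 of 13 tested higher and 2 lower in each lineage (medians -0.06 and 0.07), near the shares over all genes (15.9 and 17.1% higher, 16.4 and 15.2% lower), with Tox2 among the higher ones (3.40 ± 0.19 and 4.61 ± 0.38). The bZIP genes of the Jun and Fos families with Batf3 and Maf had 1 of 7 higher and 4 lower in CD4 cells (Fos, -2.86 ± 0.17, and Jun, -2.79 ± 0.11), and 1 higher and 2 lower in CD8 cells. Of 10 factors downstream of the antigen receptor, 2 were higher in each lineage, Nr4a2 the most (4.65 ± 0.27 and 4.26 ± 0.27), and 5 were lower in CD4 and 2 in CD8 cells, Myc among them (-1.61 ± 0.16 and -1.54 ± 0.13).

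**Figure D1:**
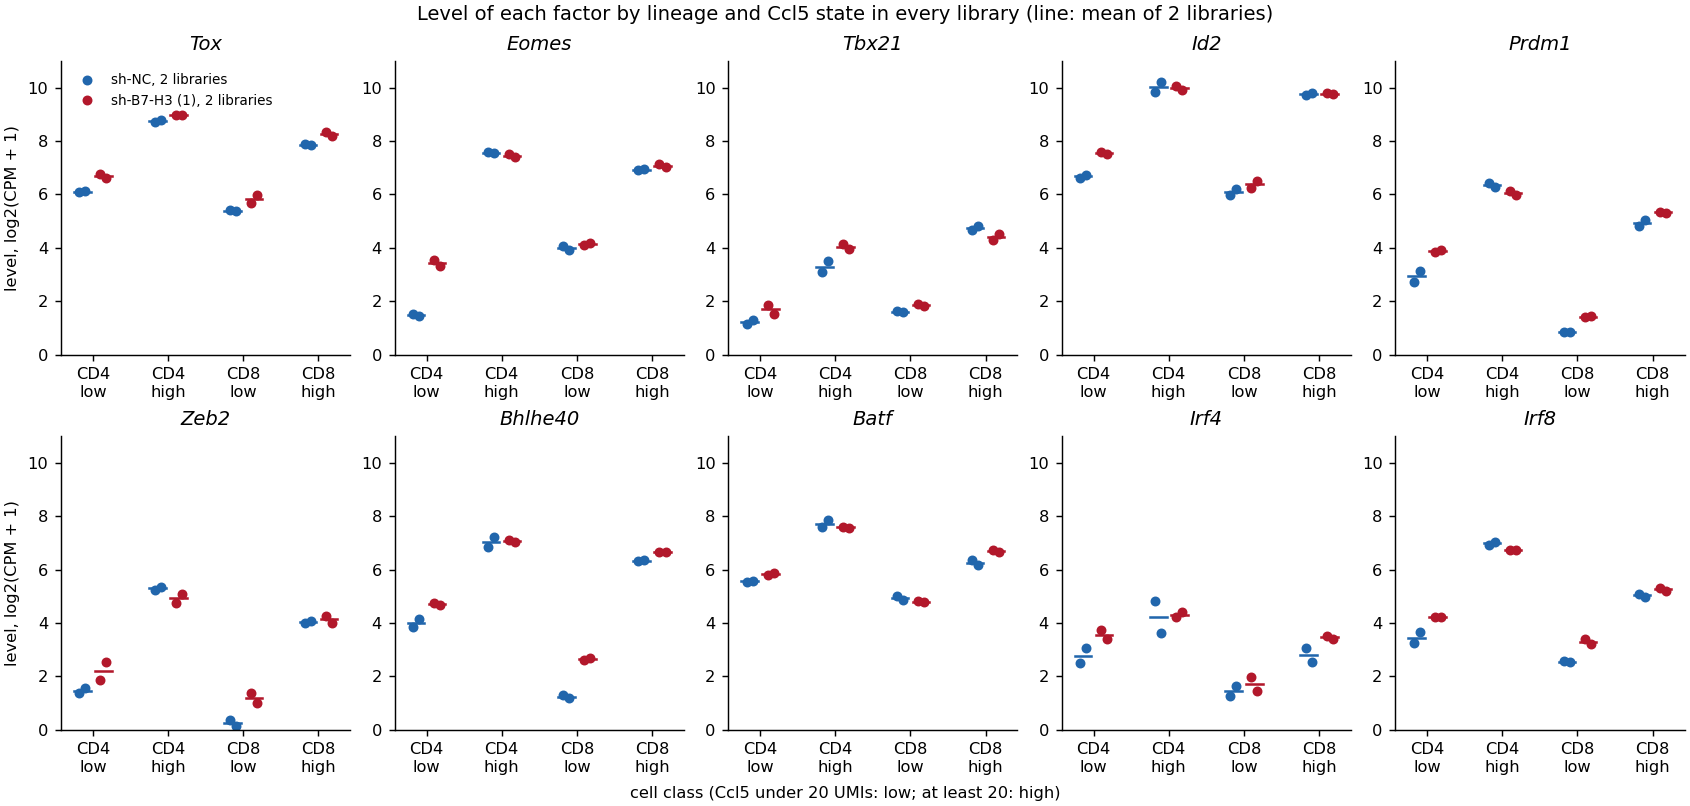
Level of each of the 10 genes as log2(CPM + 1) in CD4 and CD8 cells of the Ccl5-low and Ccl5-high class. Points are libraries (blue, sh-NC; red, sh-B7-H3 (1); n = 2 each) and lines are means of 2 libraries. In each lineage every gene but Irf4 in CD4 cells has all 4 Ccl5-high libraries above all 4 Ccl5-low libraries. The share of all genes split in this way was not counted.

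Levels were also set out over bins of Ccl5 UMIs per cell. In CD4 cells mean Tox over the 4 libraries was 75.9, 75.6 and 213 CPM in cells with 0, 1 to 4 and 5 to 19 Ccl5 UMIs, and 458, 501 and 458 CPM with 20 to 49, 50 to 99 and 100 or more. Mean Id2 in CD8 cells ran from 62.5 CPM with no Ccl5 UMI over 64.8, 184, 699 and 859 CPM to 985 CPM in the highest bin. Eomes in CD4 cells went from 2.10 and 3.67 CPM in the lowest bins over 38.8 CPM in the third to 155, 195 and 188 CPM above the limit. In CD4 cells mean Bhlhe40, Irf8 and Zeb2 were 115, 97.4 and 28.7 CPM in the highest bin and 161, 147 and 38.7 CPM in the bin before it, and the bins were not tested against each other. The bin of 5 to 19 UMIs rested on 24 to 78 cells per library, and 1 library had 18 CD4 cells with 50 to 99 UMIs.

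**Figure D2:**
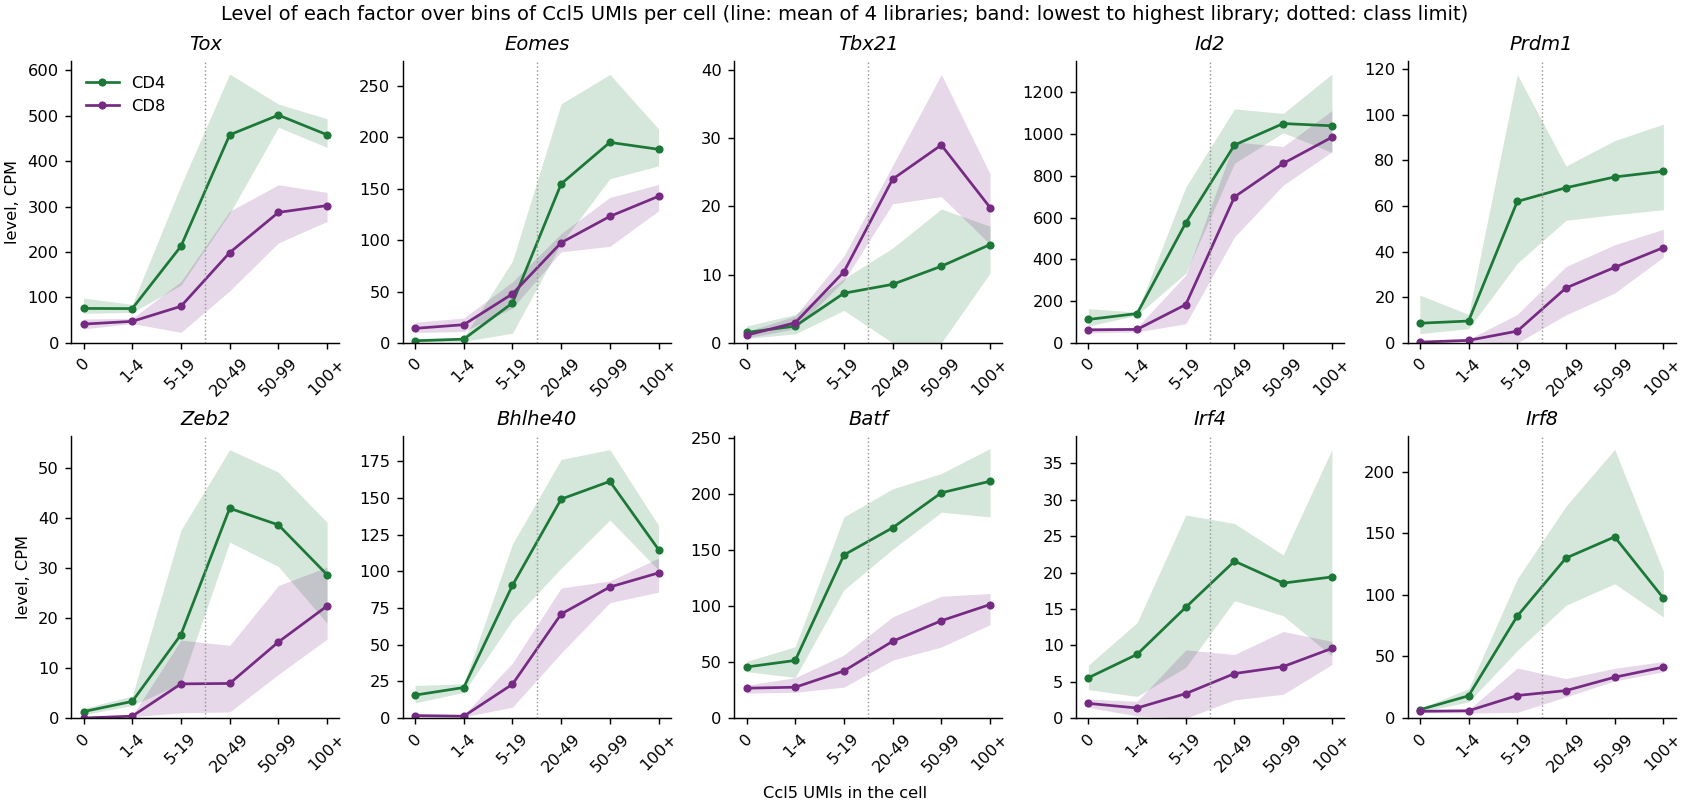
Mean level of each gene in CPM (y axis, from 0, own scale per gene) over bins of Ccl5 UMIs per cell (x axis) in CD4 (green) and CD8 cells (purple). Lines are means of 4 libraries, bands run from the lowest to the highest library, and the dotted line marks the limit of 20 UMIs. Tox in CD4 cells goes from 75.6 CPM at 1 to 4 Ccl5 UMIs to 458 CPM at 20 to 49, whereas in CD8 cells Zeb2 (6.94 CPM at 20 to 49 and 22.5 CPM at 100 or more) and Irf8 (22.3 and 41.4 CPM) are higher still in the upper bins.

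How many of the 10 factors a cell held was counted after each cell was thinned to 2000 UMIs, which left out 0 to 20 cells per class and library. CD4 Ccl5-high cells held a mean of 2.29, 2.52, 2.58 and 2.50 of the 10 factors, CD8 Ccl5-high cells 1.80, 1.79, 1.90 and 1.87, and the Ccl5-low classes 0.273 to 0.665. A UMI of Id2 was found in 78.9 ± 5.85% (SD, n = 2) of control and 77.2 ± 0.170% of knockdown CD4 Ccl5-high cells. For Tox the shares were 48.97 ± 0.321% and 57.9 ± 2.50%, and for Eomes 26.7 ± 2.13% and 29.2 ± 1.84%. In CD4 Ccl5-low cells the shares were 13.4 ± 0.0778% (control) and 17.4 ± 1.66% (knockdown) for Tox, 0.312 ± 0.00871% and 1.95 ± 0.564% for Eomes and 13.1 ± 0.0691% and 22.3 ± 0.209% for Id2. Without thinning the CD4 Ccl5-high shares were 94.6% and 95.1% for Id2, 80.2% and 88.7% for Tox and 60.1% and 61.9% for Eomes, at a median of 6196 to 6785 UMIs per cell, and the CD4 Ccl5-low shares were 28.6% and 38.3%, 36.6% and 38.7%, and 0.940% and 4.64%, at 6544 to 8038 UMIs.

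The next comparison set CD8 against CD4 Ccl5-high cells of the same library. Tbx21 was called higher in CD8 cells (log2 fold change 0.84 ± 0.20, adjusted p = 0.0053), 1 of 10 genes against 4.24% of the 9755 genes tested. Of the 10 genes 6 were called lower in CD8 cells, against a background of 5.57%: Tox (-0.64 ± 0.07), Prdm1 (-0.82 ± 0.12), Zeb2 (-0.87 ± 0.16), Batf (-0.97 ± 0.10), Irf4 (-0.99 ± 0.21) and Irf8 (-1.53 ± 0.10, adjusted p = 3.7e-09). Eomes (-0.33 ± 0.07) and Bhlhe40 (-0.38 ± 0.08) were lower with adjusted p values of 0.0025 and 0.0027 but by less than 1.5-fold. Id2 differed by -0.08 ± 0.07 (adjusted p = 0.49). With cells thinned to 2000 UMIs each, 3 of the 7 calls were left, Prdm1 (-0.84), Batf (-0.98) and Irf8 (-1.19), where 4.51% of all genes were called lower and 3.11% higher, and those of Tox (-0.56, below the fold limit), Tbx21 (0.58, adjusted p = 0.25), Zeb2 (-0.73, 0.059) and Irf4 (-0.18, 0.86) were lost. The exhaustion genes showed a similar split, with 1 of 10 called higher (Cd160, an inhibitory receptor, 1.90 ± 0.15) and 5 lower in CD8 cells (Lag3, -1.43 ± 0.08, and Havcr2, -1.02 ± 0.13). Of 9 tested genes known as T-bet and Eomes targets, 2 were higher in CD8 cells (Gzmb, granzyme B, 2.15 ± 0.22, and Cxcr3, 2.00 ± 0.16) and 3 lower (Ifng, -1.10 ± 0.09). Of 7 tested bZIP genes of the Jun and Fos families with Batf3 and Maf, 3 were higher and 2 lower (median 0.09), Maf among the lower (-2.53 ± 0.15). Of 8 tested factors of resting T cells, 5 were higher and 0 lower in CD8 cells (median 1.13 against -0.01 over all genes). The 4 resting markers summed to 173 to 208 CPM in control and 57.8 to 66.3 CPM in knockdown CD8 Ccl5-high cells. In CD4 Ccl5-high cells they summed to 48.3 to 57.8 CPM in control and 32.7 to 38.0 CPM in knockdown libraries. The part of this class makeup in the lineage differences was not tested.

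Regulatory T cells also use several of these factors, so CD4 Ccl5-low cells with a Foxp3 UMI were set against those without, 76 to 155 cells against 322 to 1430 per library. Of the 9 genes tested 7 were called higher in Foxp3 cells, against 12.9% of 8953 genes. A gene that is high only in Foxp3 cells can pass the filter on low counts through them. This count therefore describes the genes and does not test them as a group. Prdm1 stood at 29.4, 44.9, 50.9 and 41.4 CPM in Foxp3 cells and 3.35, 3.58, 5.07 and 9.21 CPM in the others (log2 fold change 2.76 ± 0.24). Irf4 stood at 18.97, 29.6, 30.5 and 34.2 CPM against 3.26 to 8.29 CPM (2.14 ± 0.25, adjusted p = 7.3e-08), and in 3 of 4 libraries it was higher in Foxp3 cells than in CD4 Ccl5-high cells. Zeb2 (2.56 ± 0.50), Irf8 (1.81 ± 0.24), Bhlhe40 (1.62 ± 0.17), Batf (1.23 ± 0.10) and Id2 (1.12 ± 0.09) were higher too. Tox was 0.09 ± 0.10 (adjusted p = 0.55) and Eomes -0.91 ± 0.52 (adjusted p = 0.19), and Tbx21 was too sparse for the test.

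The study asked what loss of B7-H3 in the tumor does to the T cells. Over all CD4 cells, all 10 factors were called higher in the knockdown libraries, against 11.4% of 11133 genes, and over all CD8 cells all 10 as well, against 11.5% of 11555 genes. In CD4 cells Eomes went from 13.3 and 15.4 CPM to 88.3 and 77.9 CPM (log2 fold change 2.45 ± 0.09, adjusted p = 1.4e-12), and Tox from 87.6 and 95.6 CPM to 289 and 277 CPM (1.55 ± 0.05). Id2 went from 148 and 186 CPM to 592 and 522 CPM (1.66 ± 0.07). In CD8 cells the largest changes were those of Bhlhe40, from 9.97 and 12.6 CPM to 58.5 and 53.4 CPM (2.22 ± 0.09), and Prdm1, from 3.71 and 5.29 CPM to 23.0 and 20.5 CPM (2.19 ± 0.14). The smallest was that of Batf in both lineages (0.94 ± 0.06 in CD4 and 0.83 ± 0.07 in CD8 cells). The call of Irf4 over all CD4 cells was lost with cells thinned to 2000 UMIs (0.72, adjusted p = 0.12). The knockdown libraries lay above the control libraries for every factor in both lineages, and the share of all genes split in this way was not counted.

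Cell classes shifted at the same time. Ccl5-high cells were 7.83 ± 1.15% (SD, n = 2) of control and 44.4 ± 0.469% of knockdown CD4 cells, a ratio of 5.67, and 16.8 ± 3.22% of control and 61.9 ± 2.95% of knockdown CD8 cells, a ratio of 3.69. With 2 libraries against 2 the exact two-sided permutation test gives p = 0.3333, the smallest it allows. To set the shift beside the levels, the control level of each class was weighted by the share of UMIs that the class holds in the knockdown libraries (44.7% Ccl5-high in CD4 against 6.72% in control, and 53.3% against 12.7% in CD8). With control levels and knockdown shares alone, Eomes in CD4 cells changed by 2.57 on the log2 scale, and the measured change was 2.53. For Id2 the values were 1.67 and 1.75 in CD4 and 1.55 and 1.59 in CD8 cells. For Zeb2, Irf8, Prdm1 and Batf in CD4 cells the weighted change (2.10, 1.79, 1.76 and 1.07) was at least as large as the measured one (1.86, 1.68, 1.67 and 1.03). This order turned with no doublet removal for Irf8 (1.70 weighted, 1.74 measured), Prdm1 (1.62, 1.66) and Batf (1.01, 1.03), and with Ccl5 at least 40 for Irf8 (1.60, 1.69) and Batf (0.995, 1.03), but not for Zeb2. For Eomes in CD4 cells it turned with no doublet removal (2.548, 2.555), with Ccl5 at least 10 (2.527, 2.532) and with Ccl5 at least 40 (2.480, 2.520). Tox changed by more than the weights gave, 1.63 against 1.32 in CD4 and 1.54 against 1.13 in CD8 cells. In CD4 cells Bhlhe40 (1.70 against 1.56) and Irf4 (1.07 against 0.80) exceeded it too. In CD8 cells Irf4 (1.49 against 0.82), Prdm1 (2.29 against 1.86) and Bhlhe40 (2.31 against 1.93) also exceeded it. So did Irf8 (1.55 against 1.22), Batf (0.93 against 0.62), Zeb2 (2.15 against 1.96) and Eomes (1.48 against 1.33) there, and Tbx21 stayed under it (1.24 against 1.54). With Ccl5 at least 40 the order turned in CD8 cells for Zeb2 (2.142 weighted, 2.139 measured) and Id2 (1.598, 1.589). Irf4 held only 19 and 14 UMIs in control CD8 Ccl5-high cells.

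**Figure D3:**
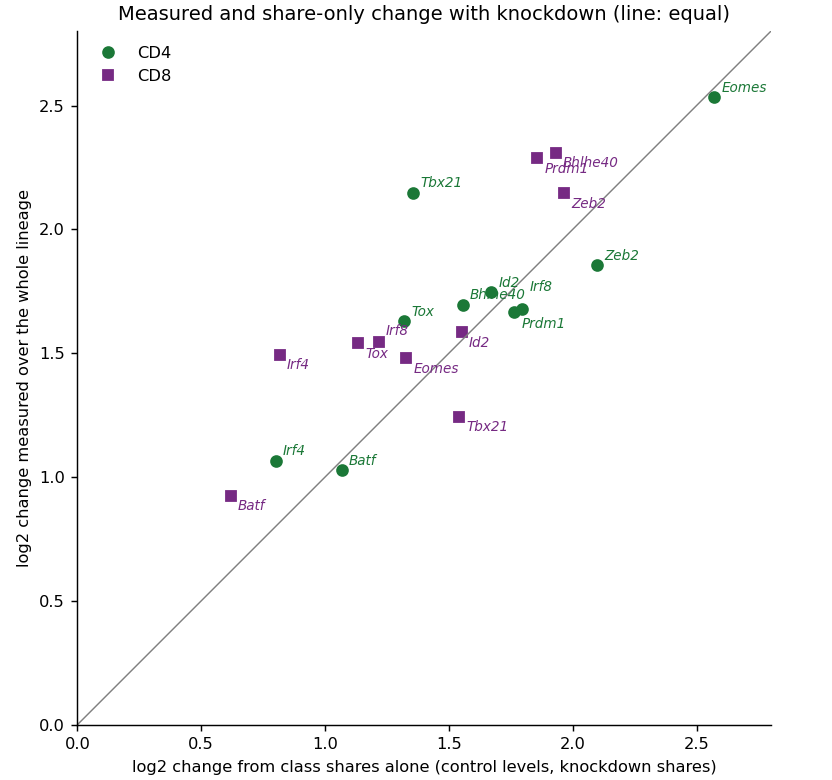
Log2 change of each gene over a whole lineage (y axis) against the change given by class shares alone (x axis, control levels weighted with the knockdown shares) in CD4 (green circles) and CD8 cells (purple squares). The line marks equal values. Farthest from the line are Tbx21 in CD4 cells (2.15 against 1.36) and Irf4 in CD8 cells (1.49 against 0.82). Their control levels in Ccl5-high cells rest on 6 and 9 UMIs (Tbx21, CD4) and 19 and 14 UMIs (Irf4, CD8).

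Inside the Ccl5-high class no factor was called between knockdown and control, in CD4 cells (background 0.86% of 8369 genes higher) or in CD8 cells (2.03% of 9705 genes). By DESeq2 the counts were 0 as well, and at an unadjusted p under 0.05 the edgeR test gave 2 factors in CD4 (Tox and Tbx21, where 15.0% of all genes passed) and 7 in CD8 cells (23.1%). With no limit on the fold, 1 of 10 was higher in CD4 (background 2.07%) and 4 of 10 in CD8 cells (background 5.64%) at an adjusted p under 0.05. Tox was the factor that rose in both lineages, by 0.34 ± 0.08 in CD4 (adjusted p = 0.0049) and 0.44 ± 0.06 in CD8 Ccl5-high cells (adjusted p = 1.7e-07), with both knockdown libraries above both control libraries in each. Batf rose by 0.47 ± 0.09, Prdm1 by 0.44 ± 0.13 and Bhlhe40 by 0.38 ± 0.08 in CD8 Ccl5-high cells (adjusted p = 0.00014, 0.022 and 0.0014). The Batf change was larger in CD8 than in CD4 cells by 0.53 ± 0.14 (interaction, adjusted p = 0.036), and by 0.76 without control library 1 (adjusted p = 0.028). Id2 in CD8 Ccl5-high cells changed by 0.06 ± 0.04 and Eomes in CD4 Ccl5-high cells by -0.02 ± 0.10. Tbx21 pointed up in CD4 (0.87 ± 0.39, adjusted p = 0.27) and down in CD8 cells (-0.30 ± 0.17, adjusted p = 0.28), and neither passed, nor did the difference between the lineages (-1.17 ± 0.41, adjusted p = 0.18). Without control library 1, Irf4 was called in CD8 Ccl5-high cells (1.11, adjusted p = 0.039), and without control library 2, Prdm1 was (0.59, adjusted p = 0.038). With no upper limit on detected genes, which also keeps doublets, 7 of 10 were called in CD8 Ccl5-high cells, where 4.66% of all genes were called higher. The CD8 Ccl5-high class was itself made up differently in the groups. Cells with 100 or more Ccl5 UMIs were 42.4 and 42.4% of it in control and 56.7 and 55.7% in knockdown libraries. Its 6 effector markers, Ccl5 among them, summed to 22607 to 22764 CPM in control and 29455 to 29502 CPM in knockdown libraries. Its 4 resting markers summed to 173 to 208 CPM in control and 57.8 to 66.3 CPM in knockdown libraries. Of CD4 Ccl5-high cells, those with 100 or more Ccl5 UMIs were 49.6 and 67.7% in control and 50.3 and 47.5% in knockdown libraries. The effector markers there summed to 36600 to 37377 and 27566 to 28974 CPM, and the resting markers to 48.3 to 57.8 and 32.7 to 38.0 CPM. Among CD8 cells with 50 to 99 Ccl5 UMIs Tox stood at 220 and 245 CPM in control and 348 and 336 CPM in knockdown libraries, and the groups did not overlap, but among those with 100 or more it stood at 331 and 267 against 322 and 289 CPM, and they did. Batf in cells with 100 or more was 111 and 83.4 against 109 and 101 CPM, and Prdm1 37.6 and 49.9 against 40.3 and 39.4 CPM, with overlap in both. Bhlhe40 was 94.6 and 85.8 against 109 and 106 CPM, with none. With the limit set at 40 Ccl5 UMIs Prdm1 did not pass in CD8 (0.33, adjusted p = 0.17) nor Tox in CD4 Ccl5-high cells (0.23, adjusted p = 0.11), and with it set at 25 per 10000 UMIs Prdm1 did not either (0.37, adjusted p = 0.086). The part of the class makeup in these changes was not tested.

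Other genes of these pathways moved in Ccl5-high cells. Of 9 tested T-bet and Eomes targets, 3 were called lower in knockdown CD4 Ccl5-high cells and 1 higher. The lower ones were Gzmb (-2.28 ± 0.21), Cxcr3 (-1.59 ± 0.26) and Klrg1 (-1.31 ± 0.38). The median of the targets was -0.29 against 0.00 over all genes, and 1.1% of all genes were called lower. Klrg1 is known as a marker of late effector cells, and the paper also names a regulatory T cell cluster by it. Its mean over the libraries was 13.8 CPM in CD4 Ccl5-high and 46.8 CPM in CD4 Ccl5-low cells. In CD8 Ccl5-high cells, where 2.42% of all genes were called lower, 2 of the targets were lower (Cxcr3, -0.66 ± 0.08, and Gzmb, -0.59 ± 0.07). The median of the 9 was 0.20 there, against -0.003 over all genes. Of 9 tested factors of resting cells, 5 were lower in CD8 Ccl5-high cells (Klf2, -1.96 ± 0.10, Tcf7, -1.68 ± 0.14, and Satb1, -1.57 ± 0.14). Exhaustion genes had 2 of 10 higher in CD8 (Havcr2, 0.73 ± 0.10, and Cd244a, 0.61 ± 0.13) and 2 of 10 lower in CD4 Ccl5-high cells (Cd160, -1.24 ± 0.24, and Ctla4, -0.73 ± 0.17). Of 10 receptor-signal factors, 1 was higher (Nr4a2, 0.90 ± 0.11) and 1 lower in CD8 Ccl5-high cells (median -0.25), and 1 of 9 tested was lower in CD4 Ccl5-high cells. Of 7 tested bZIP genes of the Jun and Fos families with Batf3 and Maf, 1 was lower in CD4 (Maf, -1.10 ± 0.09) and 2 in CD8 Ccl5-high cells.

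Inside the Ccl5-low class 7 of 10 factors were called higher in knockdown CD4 cells (background 3.53% of 10568 genes) and 3 of 10 in knockdown CD8 cells (background 1.71% of 10715 genes). In CD4 Ccl5-low cells these were Eomes (2.42 ± 0.30, adjusted p = 1.0e-05), Prdm1 (1.08 ± 0.22), Id2 (0.91 ± 0.06, adjusted p = 1.5e-09), Irf4 (0.87 ± 0.26), Irf8 (0.84 ± 0.19), Bhlhe40 (0.77 ± 0.15) and Tox (0.62 ± 0.07). In CD8 Ccl5-low cells they were Zeb2 (2.62 ± 0.70, on 2 to 6 UMIs per library), Bhlhe40 (2.02 ± 0.29, on 19 to 32 UMIs) and Irf8 (0.91 ± 0.19). Zeb2 passed the filter on low counts there only through the knockdown libraries, so its place in the count was partly set by the filter. With Ccl5 at least 10 the counts were 3 in CD4 and 1 in CD8 cells. The CD8 count was 6 with Ccl5 at least 40 and 1 by DESeq2. The shares of all genes called in these settings are not given, so these counts only describe how the calls move with the setting. In CD4 Ccl5-low cells the 4 regulatory T cell markers summed to 164 to 222 CPM in control and 323 to 413 CPM in knockdown libraries. The 6 effector markers, Ccl5 among them, summed to 156 to 222 and 999 to 1162 CPM there. Effector markers summed to 633 to 661 and 983 to 1043 CPM in CD8 Ccl5-low cells. Without Foxp3 cells 6 of the 8 factors tested were called in CD4 Ccl5-low cells (background 2.62%), with Prdm1 at 1.16 ± 0.32, Irf8 at 1.18 ± 0.24 and Id2 at 0.91 ± 0.07, and Irf4 was not (0.71 ± 0.34, adjusted p = 0.24). With any library left out Zeb2 was too sparse for the test in CD8 Ccl5-low cells, and Tox passed without control library 1 (0.60) and without knockdown library 1 (0.68). With cells thinned to 2000 UMIs, 3 of the 7 calls in CD4 Ccl5-low cells were left (background 1.81%), and those of Tox (0.53, below the fold limit), Bhlhe40 (0.54, adjusted p = 0.32), Irf4 (0.57, 0.63) and Irf8 (0.77, 0.21) were lost, as was that of Irf8 in CD8 Ccl5-low cells (1.23, 0.14), where Tox was called (0.75) and Zeb2 was too sparse for the test. The effect of knockdown in CD4 cells was smaller in Ccl5-high than in Ccl5-low cells for Eomes (-2.44 ± 0.29), Prdm1 (-1.26 ± 0.27), Irf8 (-0.98 ± 0.22) and Id2 (-0.86 ± 0.10), 4 called genes against 2.57% of genes, and in CD8 cells for Zeb2 (-2.49 ± 0.65) and Bhlhe40 (-1.65 ± 0.27), 2 called genes against 1.71%. The Zeb2 difference did not pass without control library 2 (-1.99, adjusted p = 0.21), knockdown library 1 (-2.29, 0.18) or knockdown library 2 (-2.69, 0.063). In CD4 cells those of Prdm1 and Irf8 did not pass without control library 1 (adjusted p = 0.065 and 0.051) or knockdown library 2 (0.11 and 0.095), and that of Irf8 without knockdown library 1 (0.059). Thinned to 2000 UMIs, the differences of Prdm1 (-1.55, adjusted p = 0.062) and Irf8 (-0.79, 0.50) in CD4 and of Zeb2 (-2.70, 0.62) in CD8 cells did not pass. Exhaustion genes rose in the same classes, 8 of 10 in CD4 and 7 of 10 in CD8 Ccl5-low cells, with medians of 1.67 and 2.32 against 0.00 over all genes (Lag3, 2.62 ± 0.13 in CD4 and 2.98 ± 0.26 in CD8).

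The Ccl5-low class was not made up alike in the groups. Of the CD4 Ccl5-low cells, 1335 of 1577 and 1033 of 1311 held no Ccl5 UMI in control libraries, against 122 of 398 and 151 of 532 in knockdown libraries. As shares of all CD4 cells these were 78.7 and 72.0% against 16.9 and 15.9%. Cells with 5 to 19 UMIs were 1.42 and 2.37% of all CD4 cells in control against 5.42 and 7.15% in knockdown libraries. With the class held to cells with no Ccl5 UMI, 1 factor was called in CD4 cells (Id2, 0.69 ± 0.14, adjusted p = 0.017, background 0.956%) and 0 in CD8 cells (background 0.338%). At an unadjusted p under 0.05 there was 1 in CD8 cells, Eomes (0.75 ± 0.25), where 12.1% of all genes passed. Only 122 and 151 CD4 and 137 and 155 CD8 cells of the knockdown libraries were left, Eomes, Tbx21 and Zeb2 were too sparse for the test in CD4 cells, and Tbx21, Prdm1 and Zeb2 in CD8 cells. There Tox changed by 0.46 ± 0.12 in CD4 (adjusted p = 0.083) and 0.17 ± 0.16 in CD8 cells (adjusted p = 0.75), and Eomes in CD4 cells stood at 1.14 and 1.62 CPM in control and 3.70 and 1.96 CPM in knockdown libraries. In CD4 cells with 5 to 19 Ccl5 UMIs Eomes stood at 20.9 and 9.4 CPM in control and 79.8 and 45.3 CPM in knockdown libraries, and Tox at 160 and 127 CPM against 347 and 217 CPM. Counted over single libraries, the call of Tox in CD4 Ccl5-low cells was lost without knockdown library 1 (0.55, below the fold limit), that of Prdm1 without knockdown library 2 (1.02, adjusted p = 0.056), that of Irf8 without either (0.85 and 0.82, adjusted p = 0.071 and 0.079) and that of Irf4 without control library 1 or either knockdown library.

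RNA outside cells moved with the groups as well. In barcodes with 1 to 100 UMIs, Tox stood at 57.5 and 52.2 CPM in control and 127 and 116 CPM in knockdown libraries, Id2 at 131 and 140 against 297 and 277 CPM, Eomes at 21.4 and 16.4 against 51.6 and 50.1 CPM and Bhlhe40 at 16.1 and 15.8 against 55.2 and 44.6 CPM. Ccl5 itself stood at 1212 and 1417 against 4279 and 4741 CPM. Myeloid markers in CD4 Ccl5-low cells summed to 164 to 197 CPM in control and 293 to 298 CPM in knockdown libraries, and in CD8 Ccl5-low cells to 63.2 to 80.8 and 84.1 to 179 CPM. Without cells that held 3 or more myeloid marker UMIs, 6 of 10 factors were called in CD4 (background 3.19%) and 3 of 10 in CD8 Ccl5-low cells (background 1.54%). The part of free RNA in the Ccl5-low differences was not tested.

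**Figure D4:**
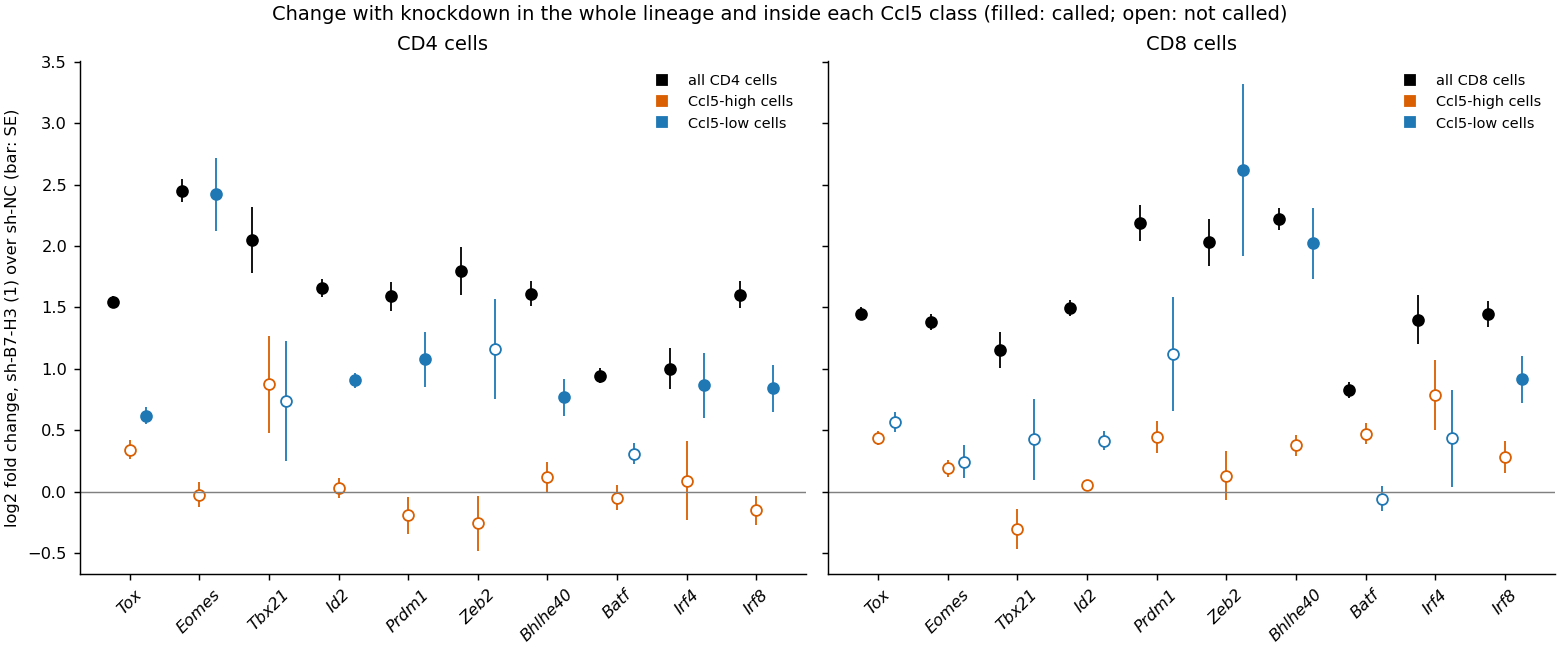
Log2 fold change of each gene, sh-B7-H3 (1) over sh-NC, in all cells of a lineage (black), in Ccl5-high (orange) and in Ccl5-low cells (blue). Bars are standard errors of the fit over 2 libraries against 2, filled points were called and open points were not. All 10 genes are called over each whole lineage and none inside the Ccl5-high class.

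The genes most like each factor were sought over the 16 sums (4 classes in 4 libraries) by Pearson's r of log2(CPM + 1), among 4517 genes that averaged 20 CPM or more. The points share libraries and the step between Ccl5 classes, so r is high for many genes. Nearest to Tox were Cdkn2c, Itgb2 and Elk3 (r = 0.996, 0.994 and 0.994). Nearest to Eomes were Cxcr6, Nkg7 and Ostf1 (0.990, 0.986 and 0.986), and nearest to Bhlhe40 were Pdcd1, which encodes PD-1, Entpd1, which encodes CD39, and Rgs1 (0.995, 0.994 and 0.992). For Prdm1 they were Bcl2a1b, Unc119 and Lrp10 (0.996, 0.995 and 0.992), for Id2 Sema4d, H2-K1 and Arsb (0.994 for each), and for Irf4 Tnfrsf9, which encodes 4-1BB, Med13 and Rab5b (0.971, 0.959 and 0.959). Between members r ran from 0.474 for Tbx21 with Irf4 to 0.987 for Prdm1 with Bhlhe40.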

How the data were processed

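Cells of 4 libraries (2 of sh-NC, 2 of sh-B7-H3 (1)) were analysed. The deposited values are UMI counts per gene and barcode, produced by the authors in Cell Ranger (STAR, mm10) and not normalized. Antibody tags were not used here. Cells outside 200 to 3000 genes or above 5% mitochondrial UMIs were dropped, and doublets (13.9 to 16.2%) were removed by a score of simulated doublets among nearest neighbors. UMIs were summed per library and class and tested with edgeR 4.0.16 (quasi-likelihood, TMM, filterByExpr, Benjamini-Hochberg over all genes). Contrasts between classes had the library as a block, since both classes come from that library, and knockdown contrasts had none. Standard errors were derived from the F statistic. The pseudocount for log2(CPM + 1) was 1. Class sums held 795548 to 20861229 UMIs. All 10 members were named by rule, and from each list at most 3 called genes with the largest change per contrast. The genes most like a member were the 3 with the highest r, printed for 6 members. The members and lists were chosen with earlier results of these data known. DESeq2 1.42.0, other scaling, filters, limits, thinning and libraries left out were tried as alternatives. No batch or date is given, and handling that differed between sh-NC and sh-B7-H3 (1) tumors cannot be told apart from the hairpin. A reference class of resting cells is not reported here.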

Additional observations from a re-analysis of the deposited data

Results flagged for a closer look

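Effects that differed between classes or lineages by an interaction test across all genes (edgeR's quasi-likelihood test, adjusted p under 0.05) were noted. The knockdown effect was smaller in CD4 Ccl5-high than in CD4 Ccl5-low cells by the following log2 values: Eomes -2.44 (adjusted p = 2.8e-07), Id2 -0.86 (5.3e-08), Prdm1 -1.26 (0.0029) and Irf8 -0.98 (0.0051). In CD8 cells it differed for Zeb2 (-2.49, adjusted p = 0.031), Bhlhe40 (-1.65, 0.00039) and Id2 (-0.36, 0.0085), which were smaller in Ccl5-high cells, and for Batf (0.51, 0.036), which was larger. The effect of the Ccl5 state was smaller in CD8 than in CD4 cells for Eomes (-2.64, adjusted p = 1.6e-05) and larger for Id2 (0.59, 0.039), Prdm1 (2.01, 0.00038) and Bhlhe40 (2.36, 1.3e-05). The knockdown effect in Ccl5-high cells was larger in CD8 than in CD4 cells for Batf (0.53, adjusted p = 0.036).

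With the Ccl5-low class held to cells with no Ccl5 UMI, Id2 (-0.62, adjusted p = 0.014) and Prdm1 (-1.70, 0.012) differed between the classes in CD4 cells and Eomes (-1.06, 0.69) and Irf8 (-0.55, 0.75) were not past the threshold. In CD8 cells Zeb2 and Bhlhe40 (-1.07, adjusted p = 0.67) were not past it either.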

How the results depend on the processing

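Over 2444 values of single factors under another setting, 2309 kept their side of the threshold, 73 lost the call, 60 gained it, and 2 called values turned sign, both with the Ccl5-low class held to cells with no Ccl5 UMI, a setting added after the data were seen: Irf4 in knockdown CD4 Ccl5-low cells (-0.20) and the class difference of Zeb2 in CD8 cells (1.59), the latter by construction on almost no UMIs. A further 70 values called in neither setting turned sign. A called factor that became too sparse for the test is in none of these counts, as Zeb2 in CD8 Ccl5-low cells with any library left out. The counts of 10 called factors for the CD4 Ccl5 contrast and each whole lineage became 9 with a 2-fold limit, the CD4 Ccl5 contrast also thinned, by DESeq2 and without control library 1 or knockdown library 2, and all CD4 cells also thinned. The CD8 Ccl5 contrast stayed at 10 with a 2-fold limit and thinned. Other counts moved as follows. The share of all genes called is given above for some of these settings only, so the counts describe the calls and do not set the factors apart from other genes. In CD4 Ccl5-high knockdown 0 became 1 with no fold limit. In CD4 Ccl5-low knockdown 7 became 8 with no fold limit, 2 with a 2-fold limit, 3 with Ccl5 at least 10, 3 thinned to 2000 UMIs, 1 with no Ccl5 UMI, and 4 to 7 without single libraries. In CD8 Ccl5-high knockdown 0 became 4 with no fold limit, 7 with no upper gene limit, 1 with no doublet removal, with 10% mitochondrial UMIs and with Ccl5 at least 10, and 0 to 1 without single libraries. In CD8 Ccl5-low knockdown 3 became 5 with no fold limit, 2 with a 2-fold limit or thinned (6 factors tested), 4 with no upper gene limit or 10% mitochondrial UMIs, 2 to 3 without single libraries (9 factors tested, Zeb2 not), 1 with Ccl5 at least 10, 6 with Ccl5 at least 40, 0 with no Ccl5 UMI and 1 by DESeq2. The 7 genes that differed between lineages in Ccl5-high cells became 9 with no fold limit, 1 with a 2-fold limit and 3 thinned. The 4 class differences of the knockdown effect in CD4 cells became 2 with a 2-fold limit, thinned, by DESeq2 and with no Ccl5 UMI, 7 with Ccl5 at least 40, and 2 to 5 without single libraries. The 2 in CD8 cells became 4 with no fold limit, no doublet removal or Ccl5 at least 40, 1 with no upper gene limit, Ccl5 at least 10, Ccl5 at least 25 per 10000, thinned or by DESeq2, 0 with no Ccl5 UMI, and 1 to 2 without single libraries. The 0 lineage differences of the knockdown effect became 1 with no fold limit, 10% mitochondrial UMIs or Ccl5 at least 10, 2 with no upper gene limit, and 0 to 1 without single libraries. The cause was not tested, except that thinning and higher or lower limits change the counts behind each value. Libraries of the same number deviated together with correlations of -0.14 to 0.11 and share only a number. With the replicate block the counts were 7 in CD4 Ccl5-low, 3 in CD8 Ccl5-low, 0 in both Ccl5-high classes and 10 in both whole lineages, and in CD4 Ccl5-high cells, where the correlation was -0.14, a crossed block added after the data were seen gave 0. Shares of Ccl5-high cells kept a ratio of 5.09 to 6.33 in CD4 and 3.25 to 4.27 in CD8 cells. Few cells in the CD4 Ccl5-high class (119 to 419) limit Tbx21 and Irf4, and Zeb2 in CD8 Ccl5-low cells rests on 2 to 6 UMIs.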
